A study of Mus musculus with 6 samples.

Results

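Microglia, the resident macrophages of the brain, were compared in 2 states: untreated cells whose label reads Cop1 KO, for a knockout of Cop1, and wild-type cells exposed to lipopolysaccharide (LPS), a component of the outer membrane of Gram-negative bacteria. The groups were taken from the treatment label. The comparison uses 4 of the 6 libraries of polyadenylated RNA in the series, 2 of Cop1 KO and 2 of LPS-treated wild type, and the level in untreated wild type, the other 2 libraries, is given beside them as a reference. All cells came from mouse brain and were held in vitro, and each library had between 20568144 and 22553708 gene counts. The knockout label also names loxP, but the sources used here do not give the deleted exons, the promoter that would drive a Cre recombinase, the mouse strain or age, or the dose and duration of LPS. The groups differ in genotype and in treatment together, so the contrast sets one state against the other and the contributions of genotype and of LPS cannot be told apart within it. Whether replicates are separate cultures or animals is not stated, so a p-value here covers the spread between these libraries alone, and that spread may be technical. In bulk RNA, fewer cells of a type and less RNA per cell cannot be told apart.

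COP1 is a RING-type ubiquitin ligase that works with DET1, DDB1 and CUL4 and marks transcription factors such as C/EBPβ, JUN and ETS proteins for destruction, with Tribbles pseudokinases serving as adaptors for the C/EBP factors. LPS acts from outside the cell: Toll-like receptor 4 (TLR4) signals through the adaptor MyD88 to NF-kB, and through TRIF to IRF3, which starts type I interferon production and a second wave of interferon-stimulated genes. C/EBP factors and NF-kB act together at many inflammatory promoters.

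Most genes differed between the states. Of 15585 genes with enough counts, out of 36528 identifiers in the files, 6220 (39.9%) were called higher in Cop1 KO and 6179 (39.6%) higher in LPS, 79.6% together (edgeR quasi-likelihood test, adjusted p below 0.05). Called differences of at least 2-fold numbered 2729 (17.5%) toward Cop1 KO and 3774 (24.2%) toward LPS, and the libraries of the groups did not overlap for 88.5% of genes. The median log2 difference over all genes tested, Cop1 KO minus LPS, was 0.03. A count for any gene list below is to be read against these shares. They depend on the scaling: the calls split 50.2% toward Cop1 KO after TMM normalisation, which corrects for composition, and 64.5% toward Cop1 KO when libraries were scaled by their totals alone, which moved the median difference to 0.40.

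**Figure D1:**
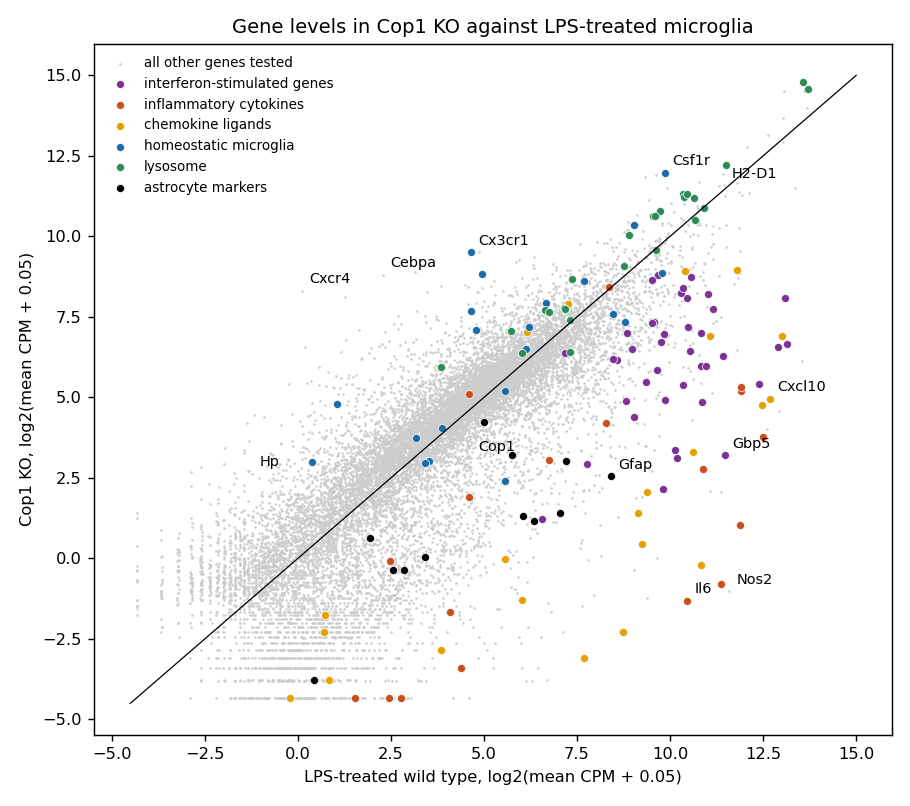
Mean level of each gene tested in Cop1 KO (vertical) against LPS-treated wild type (horizontal), as log2 of the mean level in CPM (normalised counts) plus 0.05; each point is a gene, colours mark gene lists and the line marks equal levels. The interferon-stimulated genes and nearly all cytokines and chemokines lie below the line, and most lysosomal genes lie on or above it.

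Cop1 itself was lower in the knockout libraries, at 8.06 and 9.23 CPM (counts scaled to the TMM-normalised library size), than in the LPS libraries, at 23.4 and 27.2 CPM. The untreated wild-type libraries stood between, at 12.7 and 11.5 CPM. The groups did not overlap, and the log2 difference was −1.54 (SE 0.11, adjusted p = 2.4e-19; Entrez Gene 26374, chromosome 1, 159232156 to 159354872 on GRCm38). Reads from exons outside the deleted part are counted too, so this level checks the label only in part.

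The libraries also differed in the amount of RNA from other brain cells. The 12 astrocyte markers tested, among them Gfap and Slc1a3, were all higher in LPS, with a summed level of 55.8 and 51.2 CPM in Cop1 KO and of 879 and 884 CPM in LPS. The untreated wild type, at 790 and 792 CPM, was close to LPS. Gfap, the intermediate filament of astrocytes, stood at 6.26 and 5.47 CPM in Cop1 KO, 343 and 338 CPM in LPS and 314 and 314 CPM in untreated cells. Neuron markers summed to 4.37 and 5.52 CPM in Cop1 KO against 67.3 and 68.0 CPM in LPS, with 8 of 9 called higher in LPS and Rbfox3 not called. The 10 microglia and macrophage identity markers summed to 14140 and 14070 CPM in Cop1 KO, 8912 and 8906 CPM in LPS and 9401 and 9438 CPM in untreated cells. Taken as a sum, these markers of microglia and other macrophages were abundant in every library. Of these markers 6 were called higher in Cop1 KO and 4 in LPS (6 and 2 with library-total scaling), the latter including Ptprc, encoding the leukocyte antigen CD45 (−0.62). Siglech, Slc2a5 and Crybb1, members of the homeostatic microglia list, had at most 4 counts in any library and were not tested. Of the defining markers of other blood cells, Cd3d, Cd3e, Ly6g, Mpo and S100a9 had no or almost no counts and were not tested. Other blood cell markers did have counts. Of the 5 lymphocyte and dendritic cell markers tested, 4 were called higher in LPS and 1 was not called (median −3.72). These 5 summed to 1.936 and 2.604 CPM in Cop1 KO, 34.49 and 42.73 CPM in LPS and 4.088 and 3.803 CPM in untreated cells. Any gene that astrocytes or neurons express can move with the astrocyte and neuron marker sums. The part of those sums in the differences that follow was not tested.

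**Figure D2:**
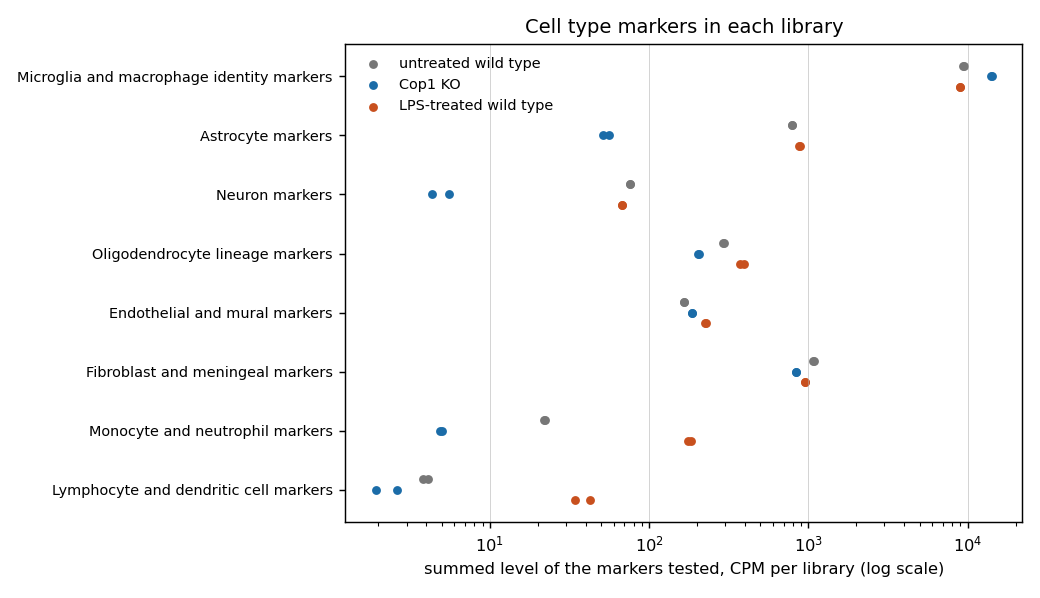
Summed level of the markers of each cell type (vertical) in each library, in CPM on a log scale, with 1 point per library and colours for the 3 groups. Astrocyte and neuron markers are more than 10 times lower in both Cop1 KO libraries than in the LPS and untreated libraries, while microglia identity markers lie between 8906 and 14140 CPM everywhere.

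Of 10 genes for the ligase and its adaptors, Cop1 included, 4 were called in each direction, with a median of 0.06 (−0.01 without Cop1 KO replicate 2, −0.22 with a filter of 10 CPM); with library-total scaling 6 were higher in Cop1 KO and 3 in LPS. Ddb1, the subunit that bridges COP1 to the cullin, was at 305 and 308 CPM in Cop1 KO and 265 and 264 CPM in LPS (log2 difference 0.22). The scaffold genes Cul4a (0.07, 95% interval −0.04 to 0.18) and Cul4b (0.04, −0.12 to 0.20) were not called. The Tribbles adaptors went apart. Trib1, which directs COP1 to C/EBPα, was at 107 and 109 CPM in Cop1 KO and 40.1 and 41.4 CPM in LPS, with untreated cells at 34.6 and 34.7 CPM, a 2.65-fold difference. Trib2 went the other way, at 1.44 and 0.883 CPM in Cop1 KO, 14.2 and 15.8 CPM in LPS and 15.7 and 16.2 CPM untreated, a 12.9-fold difference that ran parallel to the astrocyte marker sum, whose part was not tested.

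Among the transcription factors that COP1 targets, the C/EBP genes split. Cebpa, encoding a factor of myeloid differentiation, was at 461 and 439 CPM in Cop1 KO and 5.2 and 4.41 CPM in LPS, a 93.3-fold difference, with untreated wild type at 391 and 397 CPM. Cebpb was lower in Cop1 KO, at 142 and 126 CPM, than in LPS, at 333 and 311 CPM (log2 difference −1.27, SE 0.04, adjusted p = 3.4e-33), and both states exceeded the untreated level of 93.2 and 93.9 CPM. Part of the exonic sequence of Cebpb (20.7%) overlaps another annotated gene. Cebpd followed Cebpb, at 28.9 and 25.5 CPM in Cop1 KO against 65.9 and 59.2 CPM in LPS. Of the 9 substrate genes tested, 4 were called in each direction, the other genes higher in Cop1 KO being Jun (1.13), Ets1 (1.47) and Etv5 (0.51); their median difference of −0.05 changed sign to 0.32 with library-total scaling and to 0.06 without LPS replicate 1. These are RNA levels, and protein stability, which COP1 controls, was not measured.

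Inflammatory cytokines were far lower in Cop1 KO than in LPS. Of 18 tested, 16 were called higher in LPS against 39.6% of all genes, 1 was higher in Cop1 KO and the median log2 difference was −7.42 (−6.47 with genes at 0 counts placed at their bound). Il6, the acute-phase cytokine, was at 0.135 and 0.574 CPM in Cop1 KO and 1393 and 1427 CPM in LPS. Il12b, the shared subunit of interleukins 12 and 23, was at 0.315 and 0.75 CPM against 2623 and 2657 CPM. For both genes Cop1 KO lay near the untreated libraries (0.198 and 0.0373 CPM for Il6 and 0.635 and 0.671 CPM for Il12b). Il1a, an alarmin, was at 1.89 and 2.08 CPM against 3663 and 3870 CPM, a 1893-fold difference, and Il1b was at 12.5 and 14.5 CPM against 5851 and 5816 CPM, a 432-fold difference. Il10, an anti-inflammatory cytokine, had 2 counts over both Cop1 KO libraries and 721 in LPS, a ratio of 469 (95% counting interval 129 to 3882).

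Not every cytokine followed. Tgfb1, which maintains microglia, was at 348 and 335 CPM in Cop1 KO and 336 and 326 CPM in LPS, a log2 difference of 0.04 with an interval of −0.02 to 0.11. Osm, encoding oncostatin M, was the cytokine called higher in Cop1 KO, at 34.3 and 34.6 CPM against 25.1 and 23 CPM. Of the 18 receptors, 8 were called in each direction (median −0.01, which became 0.03 without LPS replicate 1 and 0.05 without Cop1 KO replicate 2). With library-total scaling 12 were higher in Cop1 KO and 6 in LPS (median 0.37). Il6ra, the interleukin 6 receptor, was 8.41-fold higher in Cop1 KO (96.4 and 103 CPM against 12 and 11.8 CPM), and Ifngr1, a chain of the interferon gamma receptor, was 3.76-fold higher. Il1r1, the interleukin 1 receptor, was at 0.495 and 0.441 CPM in Cop1 KO, 16.4 and 18.1 CPM in LPS and 7.66 and 8.65 CPM in untreated cells, a pattern also seen in the astrocyte markers, and their part was not tested. The type I interferon receptor chains were near equal: Ifnar2 had a log2 difference of 0.00 (interval −0.08 to 0.08) and Ifnar1 of −0.12, a call that changed direction with library-total scaling.

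Chemokine ligands were called higher in LPS for 20 of 22 genes and higher in Cop1 KO for 2, with a median of −7.20 (−6.67 at the bound). Cxcl10, which draws T cells, was at 30.4 and 31.8 CPM in Cop1 KO and 6604 and 6682 CPM in LPS, and Cop1 KO was above the untreated 4.8 and 4.47 CPM. Ccl22 was at 0.135 and 0.177 CPM in Cop1 KO and 431 and 430 CPM in LPS, a 2660-fold difference, and there untreated cells (2.9 and 2.31 CPM) exceeded Cop1 KO. Cxcl11 had 3 counts in Cop1 KO and 7064 in LPS, a ratio of 3065 (interval 1048 to 14860), where 41.7% of its exonic bases overlap another gene and RefSeq lists it as a transcribed pseudogene. The 2 chemokines higher in Cop1 KO were Ccl6 (240 and 243 CPM against 156 and 152 CPM) and Cxcl14 (132 and 128 CPM against 73.8 and 67.5 CPM). Feedback genes were also lower in Cop1 KO: Socs3, which limits cytokine signalling, was at 4.23 and 3.97 CPM against 979 and 926 CPM, and 11 of 12 genes of that group were called higher in LPS. Ptpn1, a phosphatase, was the exception, at 235 and 230 CPM against 125 and 117 CPM.

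NF-kB subunits, inhibitors and targets were all called higher in LPS, 18 of 18, with a median of −3.33. The size differed greatly within the group. Traf1, a TNF receptor adaptor, differed 835-fold (1.22 and 0.706 CPM against 818 and 792 CPM) and Cd40, a co-stimulatory receptor, 648-fold (3.96 and 4.24 CPM against 2722 and 2601 CPM). Tnfaip3, encoding the brake A20, was at 67.7 and 68.5 CPM in Cop1 KO, 994 and 1009 CPM in LPS and 77.8 and 80.3 CPM in untreated cells. Relb was 3.08-fold and Rela, the main activating subunit, 1.5-fold higher in LPS (144 and 143 CPM in Cop1 KO, 219 and 210 CPM in LPS and 97 and 97.2 CPM untreated).

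The signalling genes upstream of NF-kB did not share a direction. Of 16 genes of the TLR4 pathway, 8 were called higher in LPS and 6 higher in Cop1 KO (median −0.31; with library-total scaling 7 and 8, median 0.06). Tlr4 itself was 2.42-fold higher in Cop1 KO, at 60.5 and 67 CPM against 25 and 27.9 CPM, and the kinases Irak1 (1.07) and Irak4 (1.01) went with it. Myd88 was at 83.3 and 82.3 CPM in Cop1 KO, 357 and 348 CPM in LPS and 55.3 and 54.1 CPM untreated, and Ikbke, a kinase of the interferon arm, was 7.73-fold higher in LPS. Traf6 (0.03, interval −0.12 to 0.17) and Tirap (−0.07, −0.23 to 0.09) were not called.

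Of 10 genes for nitric oxide, arginine, itaconate and prostaglandin synthesis, 7 were called higher in LPS and 2 in Cop1 KO (median −2.88). Nos2, the inducible nitric oxide synthase, had the largest fitted difference of all genes tested, at 0.36 and 0.53 CPM in Cop1 KO and 3087 and 3070 CPM in LPS (log2 difference −12.74, SE 0.28, adjusted p = 2.3e-69), and untreated cells were at 0.913 and 0.447 CPM. Acod1, which makes itaconate, was at 23.6 and 24.1 CPM in Cop1 KO against 7723 and 7767 CPM in LPS, and above the untreated 4.76 and 4.06 CPM. Ptgs2, the inducible cyclooxygenase, was 385-fold higher in LPS. The constitutive Ptgs1 was instead 2.7-fold higher in Cop1 KO, and Arg2, an arginase, was at 17.4 and 18.9 CPM against 2.29 and 3.38 CPM (28.1% of its exonic bases overlap another gene). Steap4, a metalloreductase, had 0 counts in both Cop1 KO libraries and 833 in LPS, so it was at least 361-fold lower in Cop1 KO, or 337-fold at the lower 95% counting limit.

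**Figure D3:**
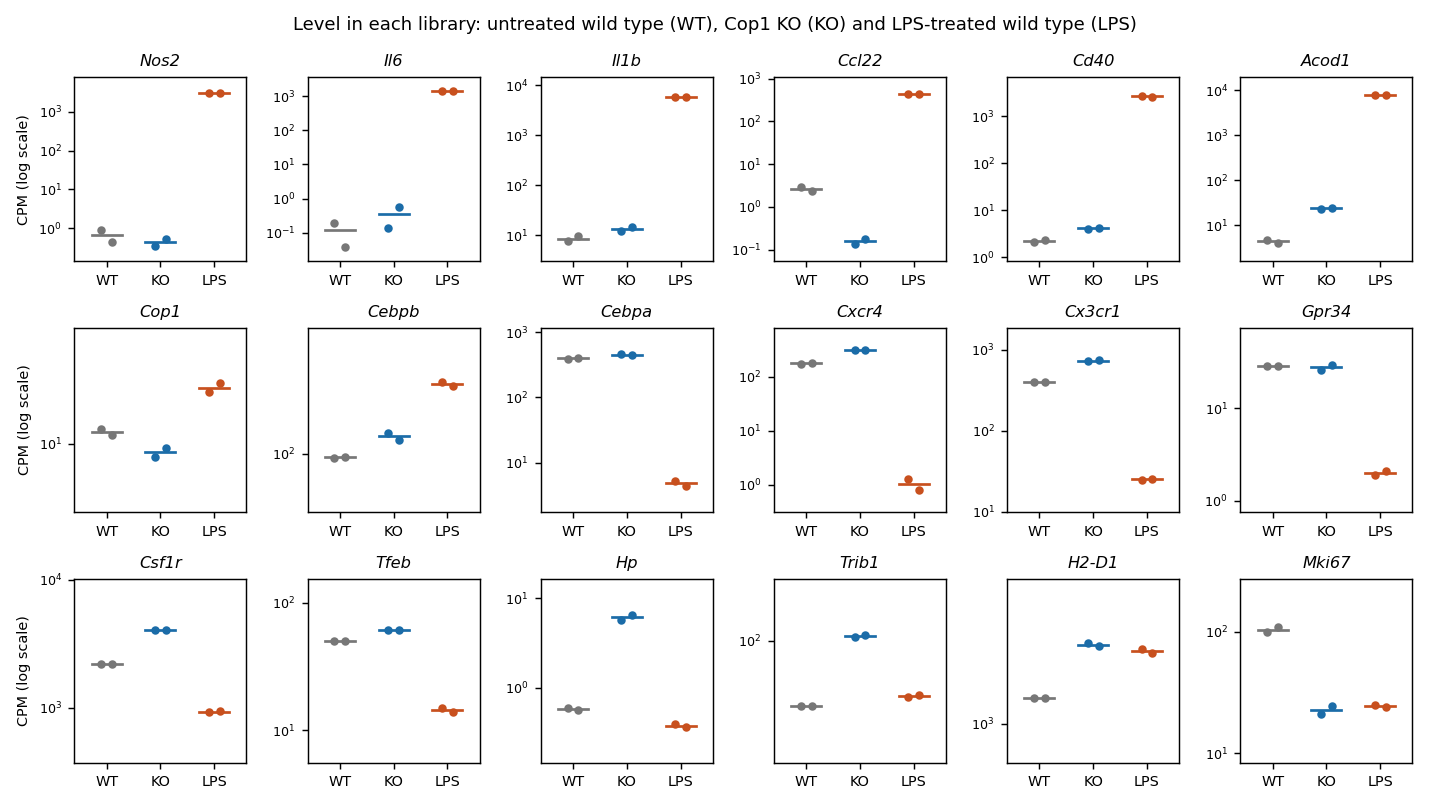
Level of 18 genes in each library, in CPM on a log scale that differs between panels, with points for the 2 libraries of untreated wild type (WT), Cop1 KO (KO) and LPS-treated wild type (LPS), and lines for their means. Nos2 and Il6 stay below 1 CPM in both untreated groups and reach 1393 to 3087 CPM in LPS, Cebpa and Cxcr4 are at 5.20 CPM or less in LPS, and Mki67 is between 20.9 and 25.2 CPM in both states against 99.2 and 109 CPM in untreated cells.

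Interferon-stimulated genes were all called higher in LPS, 40 of 40 and 37 of them by at least 2-fold, with a median of −3.87. They were graded: Gbp5, a guanylate-binding protein, was at 8.33 and 10.1 CPM in Cop1 KO and 2827 and 2874 CPM in LPS, a 309-fold difference, and Rsad2, the antiviral enzyme viperin, was at 103 and 101 CPM against 8896 and 9312 CPM. At the other end, Irf9, a subunit of the factor that drives these genes, was 1.74-fold higher in LPS, Bst2 1.82-fold and Ifitm3 1.84-fold. Cop1 KO lay between the other groups for these genes: Ifitm3 was at 116 and 122 CPM untreated, 448 and 438 CPM in Cop1 KO and 822 and 808 CPM in LPS. Zbp1, a nucleic acid sensor, was at 13.7 and 12.4 CPM untreated, 58.2 and 56.4 CPM in Cop1 KO and 812 and 802 CPM in LPS. No gene of the list was called higher in Cop1 KO.

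**Figure D4:**
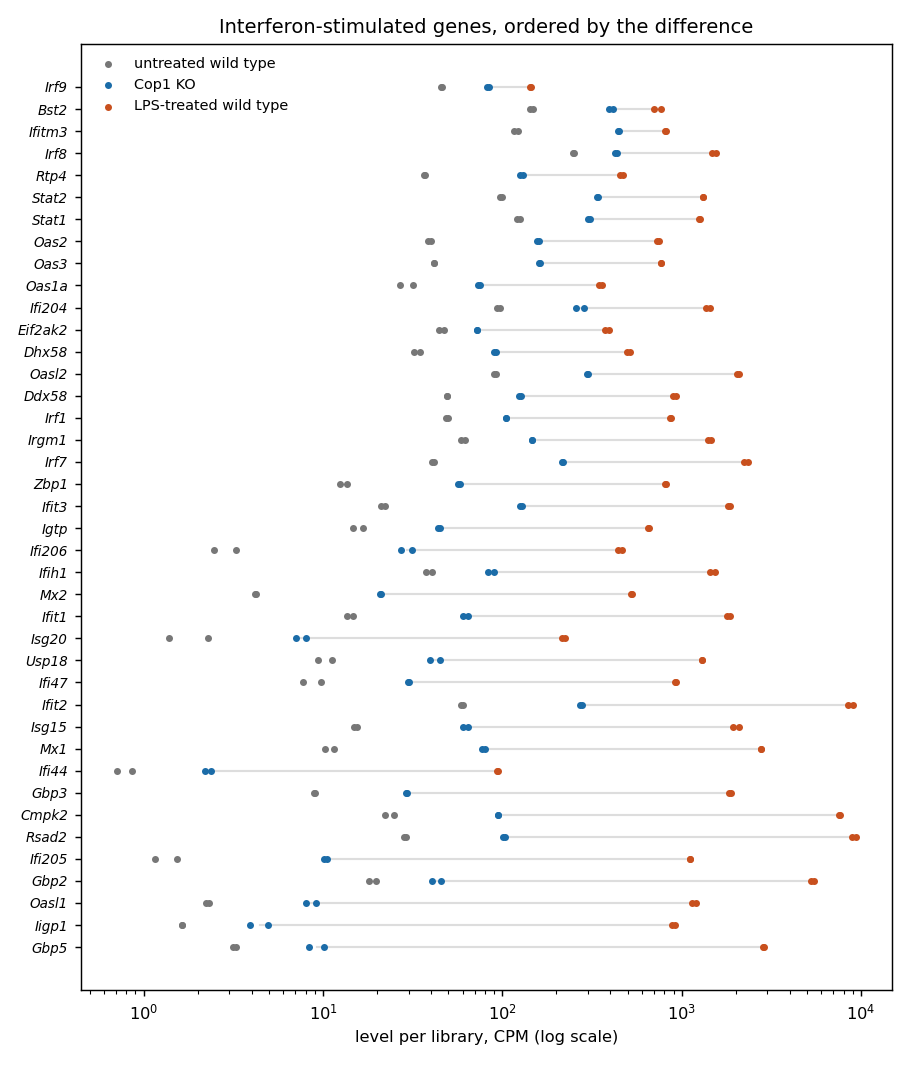
Level of each of the 40 interferon-stimulated genes in each library, in CPM on a log scale, ordered by the difference between Cop1 KO and LPS, with colours for untreated wild type, Cop1 KO and LPS-treated wild type and a grey line joining the means of Cop1 KO and LPS. The LPS points lie to the right of the Cop1 KO points for every gene, by 1.74-fold for Irf9 and 309-fold for Gbp5.

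Promoter sequences were examined because these lists are known targets of a few factors. In 250 bases upstream of each start, the interferon-stimulated response element, spelled GAAA, any 2 bases and GAAA and searched on both strands like the others, was present for 15 of 30 interferon-stimulated genes with a RefSeq window (50.0%), against 3.46% of 27025 genes. The kappa-B motif, GGG, any 3 bases and TTCC, was present for 6 of 14 NF-kB list genes (42.9%), 4 of 13 cytokines and 5 of 14 chemokines, against 5.31% of all genes. The C/EBP motif TTGCNNAA was present for 4 of 6 acute-phase and formyl peptide receptor genes against 10.8% of all, and the lysosomal CLEAR motif TCACGTGA for 5 of 20 lysosomal genes against 0.907% of all. The list genes counted were all tested genes. Shares over all genes called at least 2-fold differed less from those over the 11474 tested genes with a window. The response element was in 5.41% of genes higher in LPS against 3.30% of genes tested, and kappa-B in 6.47% against 6.08%. The C/EBP motif was in 10.2% of genes higher in LPS and 9.35% of genes higher in Cop1 KO, against 9.02% of genes tested. CLEAR was in 1.24% of genes higher in Cop1 KO against 1.63% of genes tested, so it was not more frequent there. In the other lists, the C/EBP motif was present for 2 of 13 cytokines, 3 of 30 interferon-stimulated genes and 4 of 20 lysosomal genes. It was present for 1 of 13 homeostatic microglia genes, 0 of 14 NF-kB list genes and 0 of 14 chemokines. Kappa-B was present for 6 of 30 interferon-stimulated, 1 of 20 lysosomal, 1 of 13 homeostatic and 0 of 6 acute-phase list genes. A match is only a run of letters and says nothing of binding, and these spellings were among several counted. Windows were also extracted for Cebpa, Cx3cr1, Tfeb and H2-K1. They held no match to any of these motifs and are not printed, so the genes shown next are those with matches. The windows of 4 genes are shown, from RefSeq on GRCm38.p6, with matches in capitals: Il6, at chr5:30012864-30013113 on the plus strand; Cxcl10, at chr5:92348890-92349139 on the minus strand; Gbp5, at chr3:142496684-142496933 on the plus strand; and Saa3, at chr7:46715677-46715926 on the minus strand.
Il6: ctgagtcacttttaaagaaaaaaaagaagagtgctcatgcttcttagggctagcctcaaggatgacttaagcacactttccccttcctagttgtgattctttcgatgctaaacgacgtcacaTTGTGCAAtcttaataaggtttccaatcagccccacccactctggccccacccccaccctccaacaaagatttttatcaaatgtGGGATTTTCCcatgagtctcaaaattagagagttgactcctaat
Cxcl10: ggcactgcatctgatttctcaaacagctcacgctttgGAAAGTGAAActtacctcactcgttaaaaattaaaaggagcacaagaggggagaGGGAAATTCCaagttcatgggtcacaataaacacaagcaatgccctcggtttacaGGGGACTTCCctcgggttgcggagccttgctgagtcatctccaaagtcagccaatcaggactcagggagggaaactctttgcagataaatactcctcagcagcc
Gbp5: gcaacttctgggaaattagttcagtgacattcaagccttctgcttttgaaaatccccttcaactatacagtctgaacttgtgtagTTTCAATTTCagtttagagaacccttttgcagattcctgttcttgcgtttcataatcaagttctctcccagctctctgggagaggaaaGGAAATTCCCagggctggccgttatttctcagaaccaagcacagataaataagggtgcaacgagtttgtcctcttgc
Saa3: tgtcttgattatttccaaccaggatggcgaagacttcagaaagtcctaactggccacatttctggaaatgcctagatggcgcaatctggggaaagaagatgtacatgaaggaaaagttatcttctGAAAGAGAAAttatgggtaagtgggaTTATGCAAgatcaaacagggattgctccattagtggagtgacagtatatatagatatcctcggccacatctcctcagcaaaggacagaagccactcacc

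Acute-phase genes and formyl peptide receptors, which sense bacterial peptides, were higher in LPS for 6 of 7 genes (median −3.78), but several were also well above the untreated level in Cop1 KO. Saa3, a serum amyloid, was at 8.49 and 7.79 CPM untreated, 150 and 148 CPM in Cop1 KO and 1069 and 1056 CPM in LPS. Fpr1 was at 1.19 and 0.932, 18.6 and 18.5 and 113 and 119 CPM in the same order, and Fpr2 at 0.357 and 0.634, 7.74 and 6.97 and 144 and 159 CPM. They belong to the same receptor family, and reads that aligned to both would not have been counted. Lcn2, a siderophore-binding protein, did not follow, with 1.86 and 1.68 CPM untreated, 1.71 and 1.32 CPM in Cop1 KO and 76.8 and 75.3 CPM in LPS. Hp, encoding haptoglobin, was the member called higher in Cop1 KO, at 5.72 and 6.58 CPM against 0.391 and 0.362 CPM; it lies below the level used to choose the genes named here and was added after its values were seen.

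Antigen presentation leaned to LPS, with 17 of 19 genes higher there (median −2.23). Tap1, a peptide transporter, was 11.3-fold higher in LPS and Cd274, the checkpoint ligand PD-L1, 41.8-fold, at 42.5 and 44.7 CPM in Cop1 KO against 1785 and 1862 CPM. The class I heavy chains behaved differently. H2-D1 was at 3121 and 3025 CPM in Cop1 KO and 2873 and 2724 CPM in LPS, both above the untreated 1445 and 1435 CPM, and was called higher in Cop1 KO by 0.14. H2-K1, a paralogue with which it may share reads, was −0.37, a difference that library-total scaling took to about 0. B2m, the class I light chain, was −0.48.

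Complement was mixed, with 8 of 15 genes higher in Cop1 KO and 5 in LPS (median 0.10). C3, the central component, was at 28.1 and 29.2 CPM untreated, 166 and 167 CPM in Cop1 KO and 2412 and 2422 CPM in LPS. Cfb was 38.3-fold higher in LPS, but 79.5% of its exonic bases overlap another gene. The classical C1qa, made by microglia, was higher in Cop1 KO (1406 and 1354 CPM against 937 and 839 CPM), while C1qb was not called (0.04, interval −0.02 to 0.10), except without LPS replicate 1 (0.09). C5ar1, the C5a receptor, was 1.99-fold higher in Cop1 KO.

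The inflammasome and cell death genes were called higher in LPS for 9 of 11 (median −1.50). Nlrp3 was at 31.2 and 30.8 CPM untreated, 61.5 and 62.7 CPM in Cop1 KO and 1300 and 1291 CPM in LPS, and Casp1 was 4.7-fold higher in LPS. Pycard, the adaptor ASC, differed by −0.21, a call that was lost without LPS replicate 1 (−0.13) and reversed with library-total scaling. Naip2 (0.31) and Nlrc4 (0.51) were higher in Cop1 KO.

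Genes of homeostatic microglia were higher in Cop1 KO for 14 of 22 genes, against 39.9% of all genes, and higher in LPS for 7 (median 0.97; 15 and 4 with library-total scaling). Cx3cr1, the fractalkine receptor, was at 396 and 397 CPM untreated, 726 and 743 CPM in Cop1 KO and 24.9 and 25.7 CPM in LPS. Csf1r, the survival receptor of microglia, was at 2185 and 2190, 4060 and 4024 and 931 and 940 CPM in the same order. For both genes, Cop1 KO was above and LPS below untreated cells. Gpr34, a receptor for lysophosphatidylserine, was 13.7-fold (25.7 and 29.3 CPM against 1.9 and 2.11 CPM) and Olfml3 8.3-fold higher in Cop1 KO. The genes higher in LPS included P2ry13, which was 9.02-fold higher in LPS, and Spi1, encoding PU.1 (−0.92). Sall1 was not called (0.19, interval −0.01 to 0.39), except without LPS replicate 1 (0.35).

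The largest differences toward Cop1 KO belonged to genes that were near their lower limit in LPS and well above it in untreated cells too, such as these 4. Cxcr4, a chemokine receptor, was at 175 and 180 CPM untreated, 316 and 322 CPM in Cop1 KO and 1.29 and 0.785 CPM in LPS, a 304-fold difference. Arhgap19, a GTPase-activating protein, was at 244 and 231, 280 and 277 and 2.01 and 2.72 CPM in the same order, and Kcnj2, a potassium channel, at 102 and 102, 108 and 114 and 2.74 and 2.11 CPM. Dkk2, a Wnt inhibitor, was above untreated cells in Cop1 KO as well (48.3 and 49.9, 94 and 95.4 and 1.12 and 1.09 CPM). Among genes abundant in all groups, Lrp1, an endocytic receptor, was 5.68-fold and Stab1, a scavenger receptor, 4.86-fold higher in Cop1 KO.

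Disease-associated microglia genes had no common direction, with 9 of 17 higher in Cop1 KO and 6 in LPS (median 0.23; 13 and 4 with library-total scaling). Apoe, the main lipid carrier of the brain, was at 23740 and 22650 CPM in Cop1 KO, 12960 and 11770 CPM in LPS and 13160 and 12860 CPM untreated. Cst7, a protease inhibitor, was 36.1-fold and Ch25h, an oxysterol enzyme, 33.2-fold higher in LPS. Itgax (−0.01, interval −0.07 to 0.06) and Cd63 (0.00, −0.07 to 0.07) were alike within those intervals, and Spp1, osteopontin, differed by −0.10, a call that changed direction with library-total scaling and was lost without Cop1 KO replicate 1 (−0.05). Of 11 Fc and phagocytic receptors 6 were higher in LPS and 5 in Cop1 KO (median −0.55): Marco was 21.8-fold higher in LPS and Clec4n, encoding dectin-2, 6.08-fold higher in Cop1 KO.

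Lysosomal genes were higher in Cop1 KO for 21 of 25 genes and higher in LPS for 2, with 9 at least 2-fold higher in Cop1 KO (median 0.87). Tfeb, the transcription factor that drives them, was at 50.2 and 50.1 CPM untreated, 61.3 and 60.7 CPM in Cop1 KO and 15 and 13.9 CPM in LPS. Ctsd, a protease, was at 28820 and 28430 CPM against 12450 and 12040 CPM (34.4% of its exonic bases overlap another gene), Gusb was 2.22-fold and Npc1, which exports lysosomal cholesterol, 2.5-fold higher in Cop1 KO. Npc2, its partner, was not called (−0.03, interval −0.09 to 0.02), nor was Lamp2 (−0.03, −0.10 to 0.03), although each was called slightly higher in LPS when 1 LPS library was left out (Npc2 −0.05 without replicate 2, Lamp2 −0.07 without replicate 1).

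Metabolism differed in detail. Cholesterol synthesis genes were higher in Cop1 KO for 11 of 17 and in LPS for 3 (median 0.41), led by Dhcr7 at 43.9 and 41.7 CPM against 9.56 and 10.8 CPM, while Mvd went the other way (−1.16). The exporters were opposed: Abca1 was 3.1-fold higher in Cop1 KO and Abcg1 2.55-fold higher in LPS. NRF2 target genes were higher in Cop1 KO for 5 of 8 and in LPS for 3 (median 0.87), among them Hmox1 (1402 and 1413 CPM against 552 and 542 CPM), but Slc7a11, the cystine transporter, was 7.37-fold higher in LPS. Of 6 NADPH oxidase subunits 4 were higher in LPS and 2 in Cop1 KO (median −0.51; 4 and 1 with median-of-ratios size factors), with Cybb, the catalytic subunit, at −0.65. Glycolysis genes were called higher in LPS for 7 of 16 and in Cop1 KO for 5 (median −0.24; with library-total scaling 6 and 7, median 0.13; with DESeq2 7 and 3): Pfkp was 3.71-fold and Hif1a 3.09-fold higher in LPS, while Hk2 (0.03, interval −0.05 to 0.12) and Eno1 (−0.01, −0.11 to 0.10) were alike within those intervals. Oxidative phosphorylation genes were higher in LPS for 11 of 16 and in Cop1 KO for 2 (median −0.23; with library-total scaling 6 and 8, median 0.14; with median-of-ratios size factors 12 and 0), with Atp5b at −0.92.

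Cell cycle genes were higher in Cop1 KO for 12 of 22 and in LPS for 3 (median 0.34), although both states were below untreated cells for the mitotic genes given. Mki67, a marker of dividing cells, was at 99.2 and 109 CPM untreated, 20.9 and 24.6 CPM in Cop1 KO and 25.2 and 24 CPM in LPS, and no difference between the states was called (−0.11, interval −0.27 to 0.05), except without Cop1 KO replicate 2 (−0.23). Cdk1 was at 38.5 and 39.7, 17.3 and 16.3 and 9.34 and 8.51 CPM in the same order. E2f1, a driver of S phase, was at 34.5 and 32.9, 36.7 and 36.1 and 7.38 and 8.69 CPM, so it was low in LPS alone. The inhibitor Cdkn1a, p21, was at 437 and 429 CPM in Cop1 KO and 1800 and 1759 CPM in LPS. Of 10 p53 targets, 7 were higher in Cop1 KO, such as Trp53inp1 (2.38) and Zmat3 (1.34), and 2 in LPS, Cdkn1a and Mdm2 (−1.32), which encodes a ligase for p53. Phlda3 was not called (0.15, interval −0.01 to 0.31), except without LPS replicate 1 (0.28) or without Cop1 KO replicate 2 (0.21).

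Immediate early and ERK feedback genes were called higher in LPS for 12 of 19 and in Cop1 KO for 6 (median −0.82). Dusp2, a phosphatase of ERK, was 282-fold higher in LPS (0.900 and 1.1 CPM against 294 and 274 CPM), and Dusp1 4.04-fold. Egr1 differed by −0.72 and Egr2 by 1.87, so members of one family were opposed. The matrix proteases and plasminogen system were led by Mmp13, a collagenase, at 70.2 and 62.9 CPM untreated, 67.8 and 73.8 CPM in Cop1 KO and 11640 and 12250 CPM in LPS, and 7 of 11 genes were called higher in LPS and 3 in Cop1 KO (6 and 4 with library-total scaling).

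Stress response genes were split, with 5 of 10 higher in LPS and 4 in Cop1 KO (median −0.21; with library-total scaling 3 and 5, median 0.16). Hspa5, the chaperone BiP, was 2.92-fold higher in LPS and Dnajb9, a co-chaperone of the same compartment, 2.82-fold higher in Cop1 KO, while Hsp90b1 was not called (−0.02, interval −0.09 to 0.04). Ribosomal protein genes, 6 of 18 higher in Cop1 KO and 2 in LPS (median 0.07; 13 and 0 with library-total scaling), have many processed copies, and because uniquely aligned reads alone were counted their levels are uncertain. Of the remaining marker lists, oligodendrocyte lineage genes were higher in LPS for 7 of 9 (Pdgfra at 0.45 and 0.397 CPM in Cop1 KO against 12.6 and 12.6 CPM), and the other 2 were higher in Cop1 KO, Mbp at 89 and 92.8 CPM against 17.6 and 14.6 CPM and Cspg4 by 0.40. Of 8 fibroblast and meningeal genes, 3 were higher in Cop1 KO and 4 in LPS (5 and 3 with library-total scaling; median 0.12, −0.20 with a filter of 10 CPM), with Col1a1 at 66.1 and 61.5 CPM in Cop1 KO against 28.1 and 25.8 CPM in LPS. Vcan, a matrix proteoglycan also made by monocytes, was 57-fold higher in LPS. The 4 monocyte and neutrophil markers tested, Vcan included, summed to 22.3 and 21.8 CPM untreated, 5.04 and 4.9 CPM in Cop1 KO and 176 and 182 CPM in LPS. The astrocyte marker sum was 790 and 792 CPM untreated and 879 and 884 CPM in LPS, and its part was not tested.

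**Figure D5:**
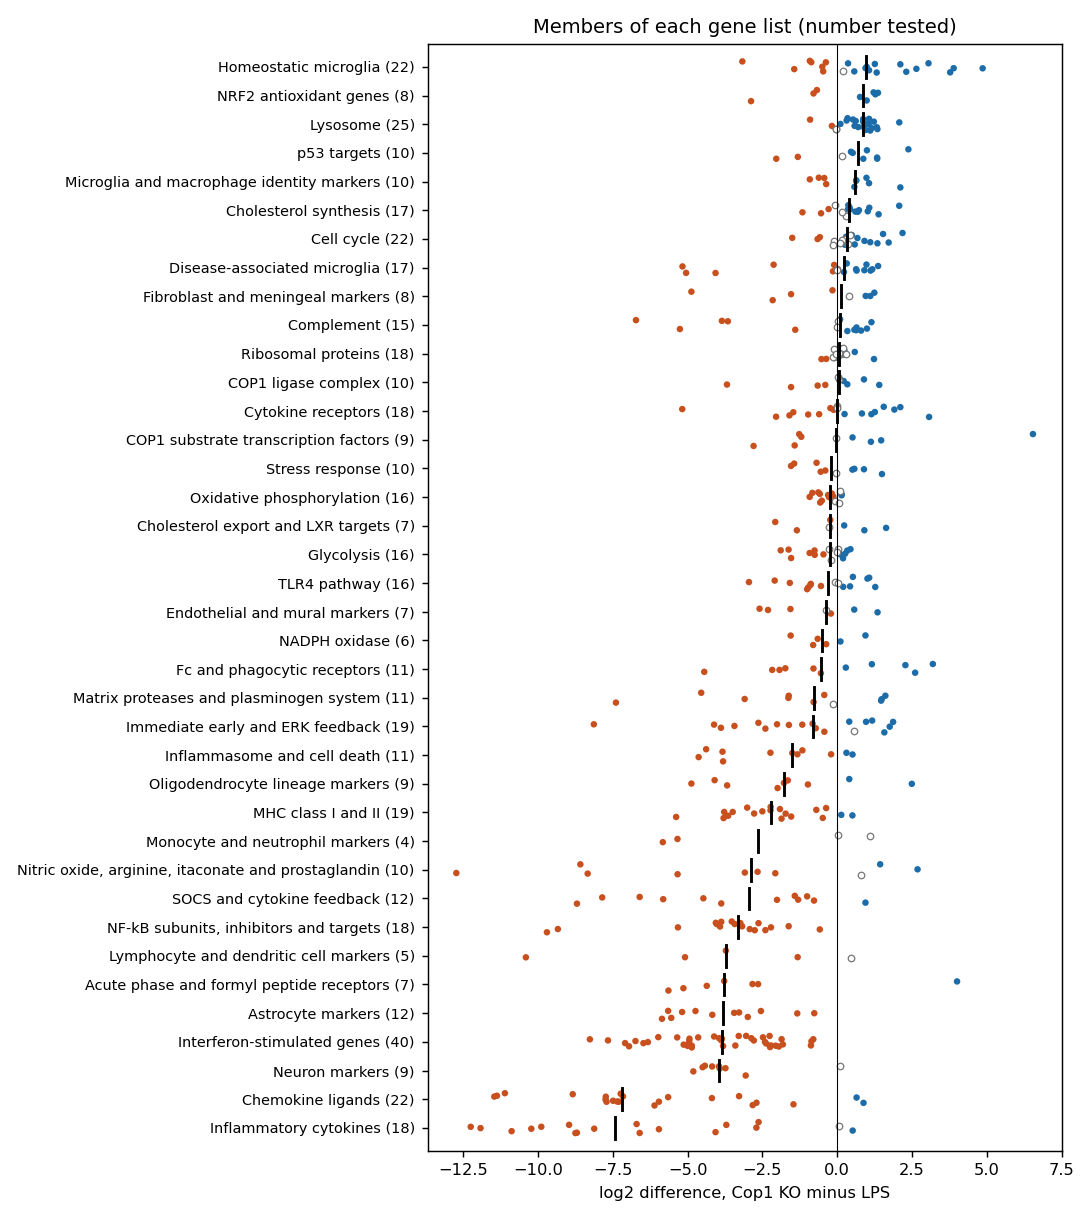
Log2 difference (Cop1 KO minus LPS, horizontal) of each tested member of each gene list, with filled points for called genes, blue where Cop1 KO was higher and orange where LPS was higher, open points for genes not called and a black bar at the list median; lists are ordered by median. Medians of the fitted values run from 0.97 for homeostatic microglia to −7.20 for chemokine ligands and −7.42 for inflammatory cytokines; with genes at 0 counts at their bound the last 2 are −6.67 and −6.47.

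Levels close to equal were counted from the intervals. Of 10389 genes whose mean reached 5 CPM, 1541 (14.8%) had a 95% interval that lay wholly within 1.25-fold. No call was made for 3186 genes (20.4% of those tested), and the interval lay within 1.25-fold for 1029 of them, so a missing call by itself does not show that levels were alike. The intervals take the TMM scaling as given. With library-total scaling, which adds 0.37 to each log2 difference, the number within 1.25-fold became 1143, and 17 of the 18 genes named here without a call were then called higher in Cop1 KO.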

How the data were processed

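Polyadenylated RNA of 6 libraries was sequenced single-end, per the labels' protocols. The submitters' processing notes name GSNAP as aligner and GRCm38 as genome build; no version of GSNAP or release of the annotation is given in the sources used here. Per the file headers, the authors deposited a count of uniquely aligned reads for each gene model, and RPKM values (nRPKM) that they adjusted by a size factor per sample, whose method is not given. The kit named in the labels does not keep the strand, so a gene and an antisense partner cannot be told apart.

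Of 36528 Entrez identifiers, 31049 took symbols and coordinates from RefSeq (GRCm38.p6) and 78 from GENCODE; the remaining 5401 held 1.072% to 1.304% of counts per library. The test was run in edgeR 4.0.16 under R 4.3.3, and Python 3.11.15 joined the tables. A quasi-likelihood model of all 6 libraries was fitted (filterByExpr by group, 3 residual degrees of freedom) with TMM factors of 1.042 and 1.042 (Cop1 KO), 0.806 and 0.806 (LPS) and 1.192 and 1.19 (untreated). The contrast was Cop1 KO minus LPS, and genes were called at a Benjamini-Hochberg adjusted p below 0.05 across 15585 genes. Standard errors and 95% intervals come from the fit, whose biological coefficient of variation was 2.7%. Counts of replicates differed beyond sampling noise, with a chi-square of 1.579 (untreated), 1.947 (Cop1 KO) and 2.472 (LPS) for each degree of freedom. In simulated data with 15466 genes and 50 genes changed at each fold, the test recovered 58% of 1.25-fold, 96% of 1.5-fold and 100% of 2-fold changes. All other genes shared a mean in both states, a single dispersion served all genes, and changed genes were drawn from those with ample counts. The shift in composition between the states was not simulated, so these shares need not hold in the real data. Where a group had 0 counts of a gene, the fold is given against a floor of 3 counts over the group, and where it had 1 to 3 counts, as a ratio; these intervals cover counting error only.

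The comparison, the lists and the rule by which genes are named were chosen with earlier results of these data known. Lists are described by counts of called members and medians, beside the same over all genes, without a set test. The rule names Cop1 and Cebpb, the 12 largest called differences in each direction with a mean of at least 5 CPM, up to 6 called and 3 least different members of each list at that level, cell type markers, and the 10 smallest p in each direction among genes of at least 100 CPM in every group; not all are printed. Motif spellings were settled after several had been counted. Alternatives were other size factors, low-count filters, DESeq2 1.42.0, limma 3.58.1 on log2(nRPKM + 1), the 4 libraries alone, and leaving out each library.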

Additional observations from a re-analysis of the deposited data

How the results depend on the processing

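Across the other settings, 60 of 65 recomputed counts of genes stayed within 1.5 times of the reported one. The number at least 2-fold higher in Cop1 KO became 4298 with library-total scaling, 1527 with a filter of at least 10 CPM and 1242 with limma on log2(nRPKM + 1), and the number at least 2-fold higher in LPS became 1925 with that filter and 1965 with limma; the filter tests fewer genes and the pseudocount of 1 compresses low genes, both by construction. Leaving out 1 library gave 5849 to 6212 genes higher in Cop1 KO and 5966 to 6233 higher in LPS. Library-total scaling adds 0.37 to each log2 difference and turned Cd63 and Eno1 to 0.37, Itgax to 0.37, Hsp90b1 to 0.35, Lamp2 and Npc2 to 0.34, Tirap to 0.30, Spp1 to 0.27, Mki67 to 0.26, Ifnar1 to 0.25, Pycard to 0.17 and H2-K1 to 0.00. It also turned the medians of cytokine receptors to 0.37, COP1 substrates to 0.32, the stress response to 0.16, oxidative phosphorylation and cholesterol export to 0.14, glycolysis to 0.13, the TLR4 pathway to 0.06, and endothelial and mural markers to 0.00. The median of the COP1 ligase complex became −0.22 with the 10 CPM filter and −0.01 without Cop1 KO replicate 2, that of COP1 substrates lay between −0.14 and 0.06 with 1 library left out (0.06 without LPS replicate 1), and that of fibroblast markers −0.20 with the filter and −0.02 with limma. The median of cytokine receptors became 0.02 with no low-count filter and lay between −0.04 and 0.05 with 1 library left out (0.03 without LPS replicate 1, 0.05 without Cop1 KO replicate 2). The cause was not tested for these. DESeq2 and median-of-ratios size factors turned the direction of no named gene that was called, but genes without a call and near 0 changed sign, such as C1qb, Cul4b and Hk2 (−0.02, −0.01 and −0.02 with median-of-ratios size factors). No paired analysis was possible because the labels carry no replicate numbers. At 20568144 to 22553708 counts per library, genes of a few counts are limited by counting error, and calls of small differences rest on a spread estimated from 2 libraries per group.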

Other observations

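A small set of genes stood at like levels in Cop1 KO and in LPS while both differed from untreated wild type; they were picked after their values were seen, and the untreated libraries are shared by both comparisons, so this is a description. Of the 1541 genes with an interval within 1.25-fold, 9 were at least 2-fold above untreated cells in both states and 7 of them have a symbol. Slc25a37, encoding the mitochondrial iron importer mitoferrin, was at 51.8 and 53.1 CPM untreated, 176 and 179 CPM in Cop1 KO and 174 and 175 CPM in LPS. Timp1, an inhibitor of metalloproteases, was at 7.10 and 6.45 CPM untreated, 32.9 and 31.7 CPM in Cop1 KO and 34.1 and 36.3 CPM in LPS. Pirb, an inhibitory receptor for class I molecules, was at 104 and 102 CPM untreated, 229 and 230 CPM in Cop1 KO and 238 and 240 CPM in LPS. Xylt2, a xylosyltransferase, was at 108 and 107 CPM untreated, 258 and 245 CPM in Cop1 KO and 246 and 234 CPM in LPS. Ly6e was at 179 and 183 CPM untreated, 712 and 711 CPM in Cop1 KO and 842 and 829 CPM in LPS, and Ifi27l2a at 35.1 and 35.3, 113 and 105, and 96.5 and 90.3 CPM in the same order. Ifitm2 was at 42.7 and 47.7, 100.4 and 96.9, and 98.9 and 92.7 CPM, with nearly the same counts as an unnamed second entry. Ly6e, Ifi27l2a and Ifitm2 are known as interferon-responsive genes. Although their intervals lay within 1.25-fold, Ly6e was called higher in LPS (−0.23) and Ifi27l2a higher in Cop1 KO (0.22). Ifitm2 was not called (0.04). The 40 interferon-stimulated genes of the list were all called higher in LPS. Like levels here take the TMM scaling as given, and library-total scaling adds 0.37 to each log2 difference. Among the 1541 genes with an interval within 1.25-fold, Mki67 was the 1 gene that lay at least 2-fold below untreated cells in both states.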
